A study of Mus musculus with 8 samples.

Results

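The chemokine ligands are small secreted proteins that direct the movement of leukocytes, and this set was taken as every gene whose array annotation gave exactly 1 symbol beginning with Ccl, Cxcl, Cx3cl or Xcl followed by a digit. The rule chose genes by name only, and measured values entered only the choice between probe sets of the same gene. It gave 34 genes of 19938 measured with 1 symbol, read by 39 probe sets, and where a gene had several probe sets the one with the highest mean over the 8 arrays was used. Only Ccl19 and Ccl25 had several. A further 7 chemokine probe sets, of the Ccl21 and Ccl27 families, carried several symbols and were left out.

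The arrays measured RNA of adipocyte precursors (APs) from male C57BL/6J mice 7 to 8 weeks old, and the question was how a brief high fat diet changes these cells in each fat depot. Mice received a standard diet (SD) or a high fat diet (HFD) for 3 days. Precursors came from inguinal subcutaneous fat (scAPs) or from perigonadal visceral fat (viAPs), and were purified on beads by removing CD45+ and CD31+ cells and then keeping SCA-1+ cells. The 8 arrays form 4 groups of 2, with the RNA of 3 mice pooled on each: SD scAP 1 and 2, SD viAP 3 and 4, HFD viAP 5 and 6, and HFD scAP 7 and 8, the numbers being those of the labels. All groups were of the same strain, so diet and depot were the only labelled differences, and a 2-array group gives a narrow view of the spread between pools.

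Chemokines fall into families by the spacing of their first cysteines (C, CC, CXC and CX3C), and act on G-protein-coupled receptors carried mainly by leukocytes. Some are inducible and recruit neutrophils, monocytes or activated T cells into inflamed tissue, while others are made steadily by stromal cells and organise resident lymphocytes. In fat, the ligands of the CCR2 receptor are known for drawing monocytes into the tissue of obese animals, and CXCL13 is known for organising the B cell clusters of visceral fat. Fibroblast-like cells, to which adipocyte precursors belong, are well-known makers of several chemokines.

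Promoter sequence was available for 23 of the 34 genes, and is shown here for the 5 ligands whose levels spanned most between the arrays. The windows are the 250 bases before the annotated start, from RefSeq (GRCm38.p6), read 5′ to 3′ on the gene's strand. Capitals mark letter matches, on either strand, to GGG, any 3 bases and TTCC (the kB motif bound by NF-kB), to GAAA, any 2 bases and GAAA (ISRE, bound by interferon regulatory factors) and to TATAAA (the TATA box). Cxcl13 lies at chr5:95956689-95956938 on the plus strand, Cxcl14 at chr13:56296552-56296801 on the minus strand, Ccl8 at chr11:82114935-82115184 on the plus strand, Cxcl9 at chr5:92328080-92328329 on the minus strand and Cxcl10 at chr5:92348890-92349139 on the minus strand.
Cxcl13: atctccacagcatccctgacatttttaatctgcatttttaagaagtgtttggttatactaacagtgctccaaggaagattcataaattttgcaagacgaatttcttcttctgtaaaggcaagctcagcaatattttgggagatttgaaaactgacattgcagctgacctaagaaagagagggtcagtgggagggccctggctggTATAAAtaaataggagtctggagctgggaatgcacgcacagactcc
Cxcl14: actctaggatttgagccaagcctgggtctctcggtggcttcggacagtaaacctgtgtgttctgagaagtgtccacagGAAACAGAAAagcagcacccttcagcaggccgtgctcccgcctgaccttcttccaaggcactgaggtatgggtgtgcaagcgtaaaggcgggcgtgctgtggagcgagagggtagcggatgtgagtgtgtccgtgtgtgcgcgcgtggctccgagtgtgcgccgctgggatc
Ccl8: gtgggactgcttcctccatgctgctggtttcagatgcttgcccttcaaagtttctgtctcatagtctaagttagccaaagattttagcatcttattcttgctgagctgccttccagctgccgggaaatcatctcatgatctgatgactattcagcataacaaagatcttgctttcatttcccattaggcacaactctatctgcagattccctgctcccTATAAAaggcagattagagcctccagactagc
Cxcl9: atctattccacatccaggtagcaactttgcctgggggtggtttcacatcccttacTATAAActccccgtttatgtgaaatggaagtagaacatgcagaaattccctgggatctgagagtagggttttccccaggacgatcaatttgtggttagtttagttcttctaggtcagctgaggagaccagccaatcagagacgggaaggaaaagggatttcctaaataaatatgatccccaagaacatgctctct
Cxcl10: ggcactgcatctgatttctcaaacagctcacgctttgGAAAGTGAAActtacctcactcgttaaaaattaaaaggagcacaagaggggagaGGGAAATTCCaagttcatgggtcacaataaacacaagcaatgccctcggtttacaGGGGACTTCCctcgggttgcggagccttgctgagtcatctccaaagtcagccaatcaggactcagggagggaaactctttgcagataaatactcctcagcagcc

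The Cxcl10 window held kB matches ending 150 and 95 bases before the start and an ISRE match ending 204 bases before it. The Cxcl14 window held an ISRE match, and the windows of Cxcl13, Ccl8 and Cxcl9 held only TATAAA, which ends 41, 27 and 190 bases before their starts. Over the 23 genes, kB matched 7 (Ccl1, Ccl9, Ccl20, Cxcl1, Cxcl2, Cxcl3 and Cxcl10), against 4.65% of all 32851 windows of the same length. ISRE matched 3 (Ccl19, Cxcl10 and Cxcl14, 2.98% of all windows) and TATAAA 9 (12.4%). The kB pattern can match the same stretch on both strands, as it did in the Cxcl1, Cxcl2 and Cxcl3 windows, and such a pair was counted as 1 window. A match of letters is a description of the window and not a binding site. Of the kB-matched ligands, Cxcl1, Cxcl2 and Cxcl10 passed the expression limit described below on at least 3 arrays.

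The labels were checked against depot genes before the ligands were compared, and 1 array went against its label. Tbx15, a transcription factor of subcutaneous precursors, read 9.67 and 9.34 (log2 intensity) on the SD scAP arrays and 9.53 and 9.63 on the HFD scAP arrays, and 3.91 and 4.09 on the HFD viAP arrays. Among the SD viAP arrays it read 4.70 on replicate 3 and 9.77 on replicate 4. Wt1, a transcription factor of visceral precursors and mesothelium, read 8.71 on SD viAP 3 and 5.98 on SD viAP 4, against 5.88 to 6.51 on the scAP arrays. The library labelled SD viAP 4 therefore carried scAP levels of both genes, and the label is kept. Changes and differences that rest on it are given with and without it; without it SD viAP is 1 array, and the spread in the test comes from the other groups. Pdgfra, the defining marker of these precursors, read 11.01 to 11.56 on all 8 arrays, while the leukocyte gene Ptprc read 4.81 to 5.67 and the endothelial gene Pecam1 5.70 to 7.78. Array medians ran from 5.58 to 5.75.

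Of the 34 ligands, 13 read above log2 7, the limit taken for expression, on at least 3 arrays (38.2%, against 33.2% of all measured genes), and 9 of these on all 8. The CXC ligands were the neutrophil attractants Cxcl1 and Cxcl2, the interferon-induced Cxcl9 and Cxcl10, and the steadily made Cxcl12, Cxcl13, Cxcl14 and Cxcl16. The CC ligands were the monocyte attractants Ccl2 and Ccl7, the eosinophil attractant Ccl11, the lymphoid ligand Ccl19, and Ccl8. Ccl9 passed the limit on SD viAP 3 alone, at 7.02, and read 5.09 to 5.93 on the other arrays. The remaining 20 stayed between 3.17 and 6.66 on every array.

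**Figure D1:**
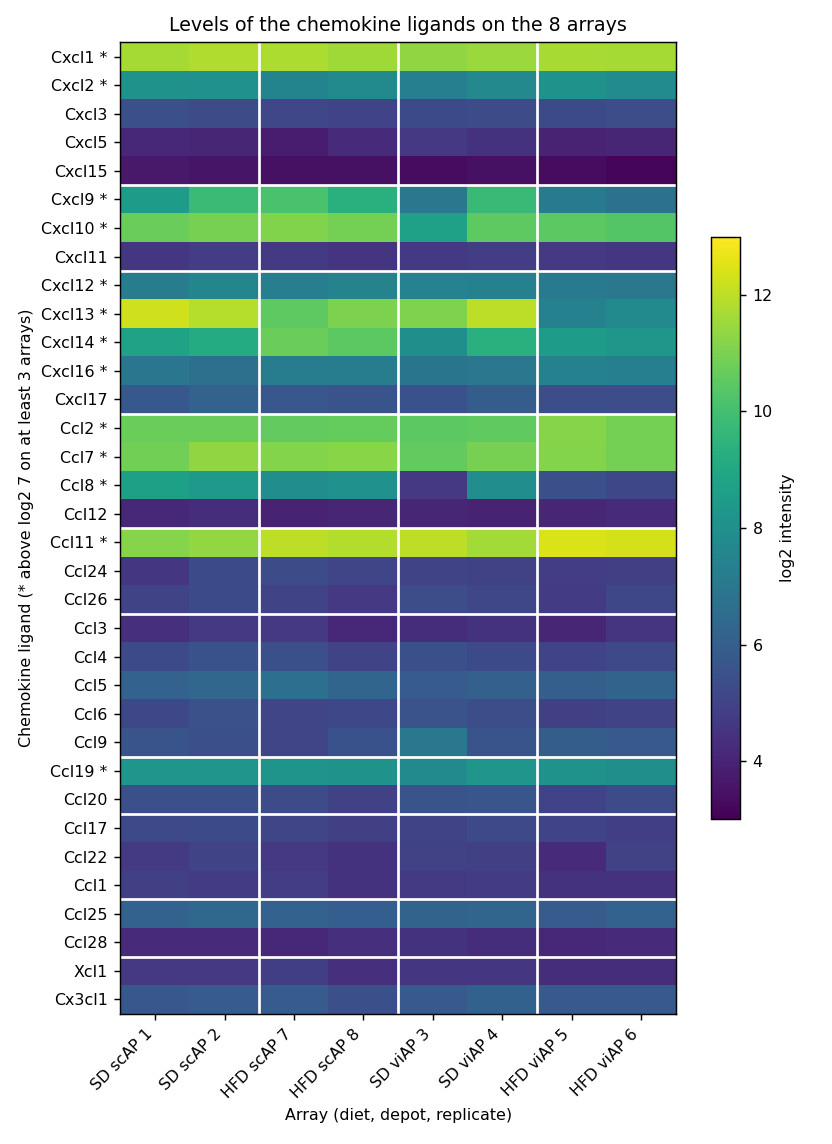
Levels of the 34 chemokine ligands (rows, grouped by role) on the 8 arrays (columns, grouped by depot and diet), with colour giving log2 intensity. Stars mark the 13 ligands above log2 7 on at least 3 arrays, and colours are to be compared along a row, since probe sets differ in brightness for the same amount of RNA.

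Several roles had no ligand above the limit, or none beyond those named. The CC ligands Ccl3, Ccl4, Ccl5 and Ccl6, typical products of macrophages and T cells, read 4.09 to 6.66. Ccl1, Ccl17 and Ccl22, ligands of CCR4 or CCR8 that attract regulatory and type 2 helper T cells, read 4.25 to 5.25. Ccl25 and Ccl28, made by epithelia, read 4.17 to 6.36, and Xcl1 and the membrane-bound Cx3cl1 read 4.32 to 6.09. Within roles that did have signal, the neutrophil attractants Cxcl3, Cxcl5 and Cxcl15 read 3.17 to 5.46, Cxcl11 (annotated in RefSeq as a transcribed pseudogene) 4.52 to 4.81, Cxcl17 5.36 to 6.15, Ccl12 4.00 to 4.32, Ccl24 and Ccl26 4.58 to 5.36, and Ccl20 4.95 to 5.64. None of these 20 spanned more than 0.84 between its lowest and highest array.

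Several ligand genes are neighbours in the genome, and neighbours differed in whether they gave signal. In the RefSeq gene order Ccl2, Ccl7, Ccl11, Ccl12, Ccl8 and Ccl1 follow each other, and of these Ccl12 and Ccl1 read below the limit throughout. In the run Cxcl3, Cxcl15, Cxcl1, Cxcl2 the first pair read below the limit and the second pair above it. No gene of the run Ccl5, Ccl9, Ccl6, Ccl3, Ccl4 passed it on 3 arrays. The 5 probe sets of Ccl19 sit on near-identical copies of that gene, differed by at most 0.22 on any array, and cannot be told apart.

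Changes were tested with limma on all 8 arrays, with p-values adjusted over the 3076 probe sets that passed the expression limit and varied most. Calls required both a 2-fold difference (1 on the log2 scale) and an adjusted p under 0.05. Of the 34 ligands, 6 were among those 3076 (Ccl8, Ccl11, Cxcl9, Cxcl10, Cxcl13 and Cxcl14), and the adjusted p of the others was taken over all 21789 probe sets with 1 symbol. Shares of the 3076 given below therefore match counts over these 6 ligands and not over all 34. In these bulk samples, fewer cells of a type and less RNA per cell cannot be told apart.

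After 3 days of HFD, the viAPs lost most of their signal for Cxcl13, the ligand of CXCR5 that guides B cells. Cxcl13 read 11.08 and 12.00 on the SD viAP arrays and 7.38 and 7.74 on the HFD viAP arrays. All HFD viAP values lay below all SD viAP values, just above the expression limit. Cxcl13 fell by 3.98 on the log2 scale (SE 0.34, 95% interval -4.80 to -3.16, n = 2 and 2 pools, limma adjusted p = 0.00324), a 15.8-fold difference. Leaving out SD viAP 4 gave a change of -3.52 (limma adjusted p = 0.0147). Cxcl13 was the only ligand called in viAPs, 1 of 34, where 13.5% of the 3076 probe sets were called, 12.5% higher and 1.01% lower, and 1.74% of all 21789 probe sets when the adjustment ran over all of them. With that array left out, 11.6% of the 3076 were called. The Cxcl13 call held under each of the alternatives run and with each array left out, the changes then running from -4.44 to -3.52.

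In scAPs, Cxcl13 also went down. It read 12.29 and 11.89 on the SD scAP arrays and 10.50 and 11.02 on the HFD scAP arrays, so the diets did not overlap and both groups stayed far above the limit. The fall was 1.33 (SE 0.34, 95% interval -2.15 to -0.51, limma adjusted p = 0.0323), or 2.52-fold. The change in viAPs minus that in scAPs was -2.65 (95% interval -3.81 to -1.49), but this difference did not pass the test after adjustment (limma adjusted p = 0.293), and none of the 3076 probe sets did (0%). Without SD viAP 4 it was -2.19 (limma adjusted p = 0.341). Without SD viAP 3 the difference was called, at -3.11 (limma adjusted p = 0.0273), and that fit kept from the SD viAPs only the array with scAP levels of Tbx15.

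**Figure D2:**
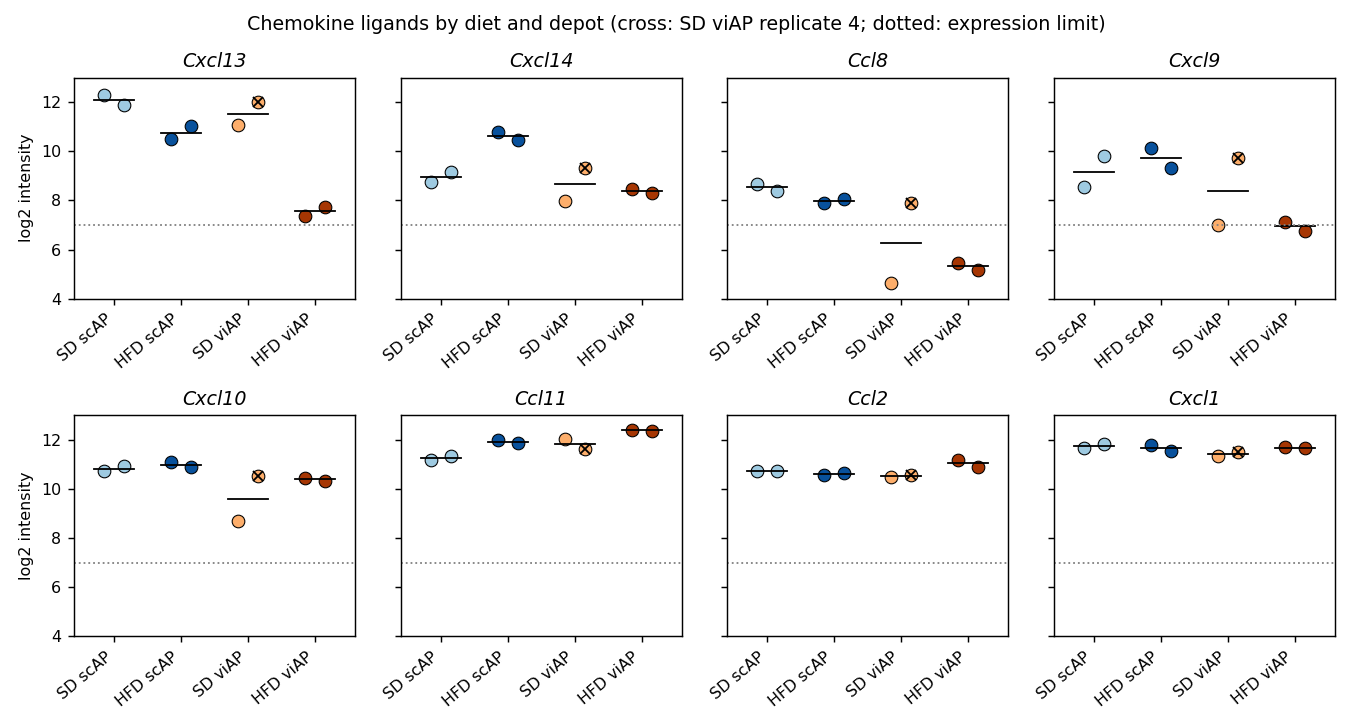
Levels (log2 intensity) of 8 chemokine ligands on each array, by diet and depot, where each point is 1 pool of 3 mice and the bar is the mean of the 2 pools. The cross marks SD viAP replicate 4, which lies near the SD scAP points for Ccl8 and Cxcl10, and the dotted line is the limit of log2 7.

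Cxcl14, a ligand made steadily by epithelia and fibroblasts, moved in the other direction in scAPs. It read 8.75 and 9.15 on the SD scAP arrays and 10.77 and 10.47 on the HFD scAP arrays. Both HFD scAP values lay above those of the other 6 arrays. Cxcl14 rose in scAPs by 1.67 (SE 0.41, 95% interval 0.68 to 2.66, limma adjusted p = 0.0307), or 3.18-fold. In scAPs 2 of 34 ligands were called, 1 in each direction, where 3.38% of the 3076 probe sets were called (3.22% higher and 0.163% lower).

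In viAPs Cxcl14 read 7.98 and 9.34 on SD and 8.48 and 8.29 on HFD. The SD arrays enclosed the HFD arrays, and the change was -0.27 (95% interval -1.26 to 0.72, limma adjusted p = 0.563). Without SD viAP 4 it was 0.41 (95% interval -0.19 to 1.00). The change in viAPs was lower than in scAPs, with a difference of -1.94 (95% interval -3.34 to -0.54), which missed the threshold (limma adjusted p = 0.315). Without SD viAP 4 it was -1.26 (limma adjusted p = 0.341), and without SD viAP 3 it was called, at -2.62 (limma adjusted p = 0.0254).

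Both scAP calls depended on the settings, as did the scAP calls of other genes. With the 4 scAP arrays alone none of the 3076 probe sets was called, which covers Cdh5, Eng, Vcam1 and Car3, given below. With the p-values adjusted over all probe sets, or over those passing the expression limit alone, neither Cxcl13 nor Cxcl14 passed in scAPs (over all 21789, 0.00459% were called), and with the 4 scAP arrays alone their smallest adjusted p was 0.0712 (limma). Leaving out any 1 of SD scAP 1, SD scAP 2, HFD scAP 7, HFD scAP 8, HFD viAP 5 or HFD viAP 6 also ended both calls, with changes of -1.59 to -1.08 for Cxcl13 and 1.47 to 1.87 for Cxcl14, while leaving out SD viAP 3 or 4 kept both (without SD viAP 4, 3.74% of the 3076 were called).

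Endothelial markers, among other lists, were higher on HFD in scAPs, as Cxcl14 was. Of 18 endothelial genes, 15 were higher on both HFD scAP arrays than on both SD scAP arrays and none lower, where 21.7% of all probe sets with 1 symbol and 44.3% of those above the limit were higher in that way. Their summed intensity was 2220 and 2318 on SD and 3968 and 3975 on HFD. Cdh5, the cadherin of endothelial junctions, rose by 1.83 (limma adjusted p = 0.0225) and Eng, a co-receptor of TGF-beta, from 8.34 and 8.06 to 9.34 and 9.25 (limma adjusted p = 0.0141), while Tek, the angiopoietin receptor, read 9.55 to 9.85 on SD and 10.07 to 10.23 on HFD. Pecam1 read 6.25 and 6.38 on SD scAP and 7.78 and 7.70 on HFD scAP. In viAPs the endothelial sums were 2081 to 2130 on SD and 2600 to 2765 on HFD, with 3 genes higher and 10 lower. Of probe sets above the limit, 62.2% were higher and 12.1% lower in that way, but only 4 of the 18 genes passed the limit. The 3 higher included Eng (9.06 and 8.84 on SD viAP, 9.95 and 9.80 on HFD viAP) and Tek (9.13 and 8.97, then 9.71 and 9.78). Other lists differed in scAPs too. Of 10 genes of committed preadipocytes 7 were higher and 1 lower on both HFD scAP arrays than on both SD scAP arrays. Of 9 precursor markers 6 were higher and 1 lower in that way, and of 11 interferon-responsive genes 1 was higher and 6 lower. The part of any of these genes in the Cxcl14 result was not tested.

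Ccl11 (eotaxin), which draws eosinophils through CCR3, was the one ligand that was higher on HFD in both depots by the adjusted p but under 2-fold. It read 11.20 and 11.36 on SD scAP and 11.99 and 11.87 on HFD scAP, and 12.02 and 11.63 on SD viAP and 12.42 and 12.35 on HFD viAP. The diets did not overlap in either depot. The difference was 0.64 in scAPs (95% interval 0.26 to 1.03, limma adjusted p = 0.031) and 0.56 in viAPs (95% interval 0.18 to 0.95, limma adjusted p = 0.0221), or 1.56-fold and 1.48-fold. With no minimum fold, 64.8% of the 3076 probe sets passed in viAPs and 30.4% in scAPs, so a difference of this kind was common. Without SD viAP 4 it was 0.37 in viAPs and did not pass. With the 4 arrays of each depot alone, Ccl11 passed in neither depot (limma adjusted p = 0.0712 in scAPs and 0.0627 in viAPs).

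The interferon-induced ligands Cxcl9 and Cxcl10, which attract activated T cells through CXCR3, turned on the 2 SD viAP arrays. Cxcl10 read 8.70 on SD viAP 3 and 10.51 on SD viAP 4, and 10.47 and 10.33 on the HFD viAP arrays. SD viAP 3 was the lowest of all 8 arrays, as the scAP arrays read 10.73 and 10.93 on SD and 11.10 and 10.89 on HFD. With all arrays the viAP change was 0.79 (95% interval -0.44 to 2.02, limma adjusted p = 0.199); without SD viAP 4 it was called, at 1.70 (SE 0.17, limma adjusted p = 0.0147), a fit of 2 HFD pools against the 1 pool SD viAP 3 whose spread comes from the other groups.

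Cxcl9 read 7.00 and 9.73 on SD viAP, 7.14 and 6.75 on HFD viAP, 8.54 and 9.80 on SD scAP and 10.12 and 9.33 on HFD scAP. The values split by array rather than by label: SD viAP 3 and both HFD viAP arrays lay near the limit, and the other 5 arrays at 8.54 or above. The viAP change was -1.42 (95% interval -3.49 to 0.65, limma adjusted p = 0.176) with all arrays and -0.05 (95% interval -1.59 to 1.49) without SD viAP 4. Leaving out SD viAP 3 instead gave a called change of -2.78 (limma adjusted p = 0.016).

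Other interferon-responsive genes also read lower on SD viAP 3 than on SD viAP 4, but some were not below their HFD viAP levels. The summed intensity of 11 such genes, Cxcl10 not among them, was 2025 on SD viAP 3 and 4063 on SD viAP 4, 2812 and 2919 on HFD viAP, and 4126 to 4809 on the scAP arrays. Irf1, a transcription factor induced by interferon, read 9.11 on SD viAP 3, 9.93 on SD viAP 4 and 9.39 to 10.60 elsewhere. Ifit1, an interferon-induced RNA-binding protein, read 7.52 on SD viAP 3, 9.24 on SD viAP 4 and 9.34 and 9.32 on HFD viAP. Irf7 read 7.94 on SD viAP 3 and 7.90 and 7.85 on HFD viAP. Usp18 read 6.63 on SD viAP 3 and 6.63 and 6.58 on HFD viAP. Of the 11, 3 were higher and 3 lower on both HFD viAP arrays than on both SD viAP arrays. Among probe sets above the limit, 62.2% were higher and 12.1% lower in that way. With all arrays none of the 11 was called in any comparison, and their median change was -0.10 in viAPs and -0.20 in scAPs. When SD viAP 4 was left out, the viAP median was 0.38 and 2 were called higher in viAPs, Ifit1 and the related Ifit2.

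Ccl8 showed the widest gap between the SD viAP arrays. It read 4.64 on SD viAP 3 and 7.91 on SD viAP 4, against 5.46 and 5.17 on HFD viAP, 8.68 and 8.38 on SD scAP and 7.89 and 8.04 on HFD scAP. On SD viAP 3 and both HFD viAP arrays it lay below the median of the array, and on the other 5 arrays above the limit. The viAP change was -0.96 (95% interval -3.14 to 1.21, limma adjusted p = 0.362) with all arrays, and changed sign to 0.67 (limma adjusted p = 0.0496, under 2-fold) without SD viAP 4. Without SD viAP 3 it was called in the other direction, at -2.59 (limma adjusted p = 0.00435). In scAPs the change was -0.56 (95% interval -2.73 to 1.62, limma adjusted p = 0.651).

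**Figure D3:**
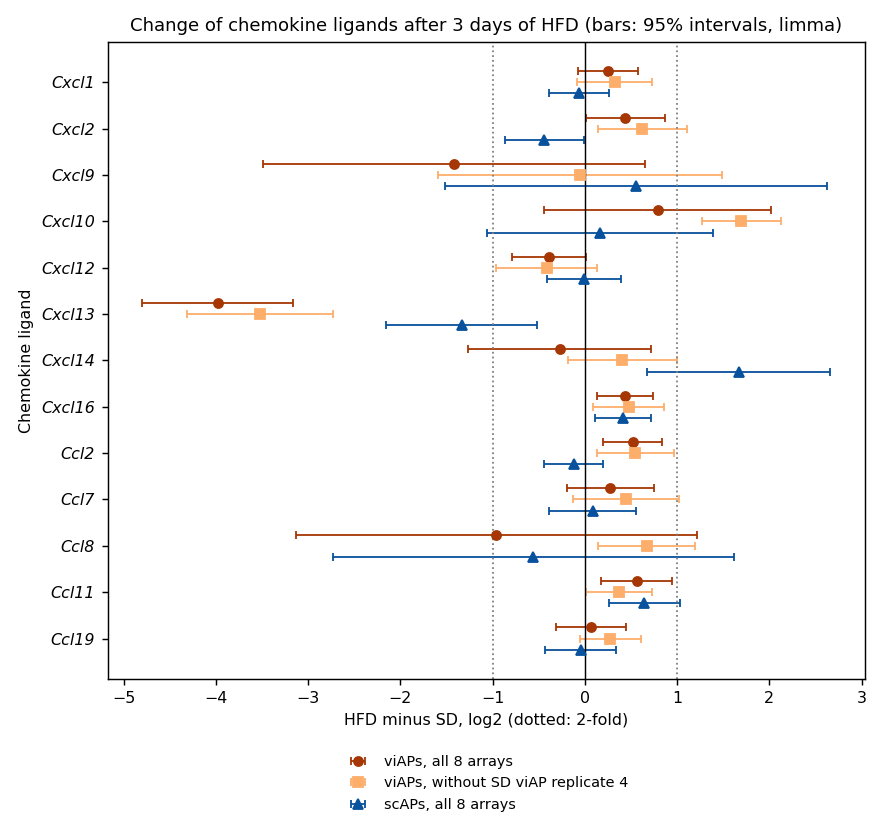
Change after 3 days of HFD (HFD minus SD, log2) of the 13 ligands above the expression limit, with 95% limma intervals, in viAPs with all arrays (circles), in viAPs without SD viAP replicate 4 (squares) and in scAPs (triangles). Cxcl13 lies left of the 2-fold line in all 3 fits, and the viAP values of Ccl8, Cxcl9, Cxcl10 and Cxcl14 shift most when the replicate is left out.

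The monocyte attractants Ccl2 and Ccl7 and the neutrophil attractant Cxcl1 were bright and moved little. Ccl2 read 10.49 and 10.56 on SD viAP and 11.19 and 10.90 on HFD viAP, and 10.59 to 10.75 on the 4 scAP arrays. Only the HFD viAP arrays stood above the rest, by a change of 0.52 (95% interval 0.20 to 0.84), which did not pass (limma adjusted p = 0.0749), and was 0.55 without SD viAP 4 (limma adjusted p = 0.177). Ccl7 read 10.60 to 11.32 over the 8 arrays and Cxcl1 11.35 to 11.82, and the diets overlapped in scAPs for both. Their viAP changes, 0.28 for Ccl7 and 0.25 for Cxcl1, did not pass (limma adjusted p = 0.398 and 0.282), and were 0.45 and 0.32 without SD viAP 4.

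Cxcl2 differed with the opposite sign in the 2 depots. It read 7.33 and 7.70 on SD viAP and 8.09 and 7.82 on HFD viAP, but 8.10 and 8.04 on SD scAP and 7.50 and 7.77 on HFD scAP. No groups overlapped within a depot. The changes were 0.44 in viAPs (95% interval 0.01 to 0.87, limma adjusted p = 0.181) and -0.44 in scAPs (95% interval -0.87 to -0.01, limma adjusted p = 0.329), and their difference of 0.88 did not pass either (limma adjusted p = 0.744). With SD viAP 4 left out, the viAP change was 0.63 (limma adjusted p = 0.18) and the difference 1.07 (limma adjusted p = 0.839).

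Among the dimmer ligands, Cxcl16, a membrane-bound ligand of CXCR6, read 6.69 to 6.95 on the 4 SD arrays and 7.18 to 7.39 on the 4 HFD arrays. The diets did not overlap in either depot, with changes of 0.44 in viAPs (95% interval 0.13 to 0.74, limma adjusted p = 0.0975) and 0.42 in scAPs (95% interval 0.11 to 0.72, limma adjusted p = 0.213). Cxcl12, the ligand of CXCR4, read 7.38 to 7.43 on SD viAP and 6.97 to 7.08 on HFD viAP, a change of -0.38 (95% interval -0.78 to 0.02). The CCR7 ligand Ccl19 read 7.79 to 8.21 over all arrays, with a change of 0.07 in viAPs (95% interval -0.31 to 0.45) and -0.04 in scAPs (95% interval -0.43 to 0.34). With SD viAP 4 left out, the viAP changes were 0.48 for Cxcl16, -0.41 for Cxcl12 and 0.27 for Ccl19, and none passed (limma adjusted p = 0.194, 0.357 and 0.318).

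Counts over the ligands were set beside those over all genes. Among the 13 with signal, the HFD viAP arrays both lay above the SD viAP arrays for 5 and below for 2, where 62.2% of probe sets above the limit were higher and 12.1% lower in that way. In scAPs the counts were 3 above and 5 below, against 44.3% and 9.49%. The median change over all 34 ligands was -0.19 in viAPs and -0.13 in scAPs, beside -0.05 and -0.00 over the 21789 probe sets.

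Between depots on HFD, Cxcl13 and Cxcl14 were lower in viAPs than in scAPs. The Cxcl13 levels of 7.38 and 7.74 in viAPs against 10.50 and 11.02 in scAPs gave a difference of -3.20 (SE 0.34, 95% interval -4.02 to -2.38, limma adjusted p = 0.0355), or 9.20-fold. For Cxcl14, 8.48 and 8.29 against 10.77 and 10.47 gave -2.23 (SE 0.41, 95% interval -3.23 to -1.24, limma adjusted p = 0.0488), or 4.71-fold. No depot groups overlapped for either. These were 2 of 34 ligands, where 1.98% of the 3076 probe sets were called (1.3% higher and 0.683% lower in viAPs).

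Ccl8 and Cxcl9 were low in HFD viAPs too, and whether they were called depended on the SD viAP arrays, which lend their spread to the test. With all 8 arrays the differences were -2.65 for Ccl8 (95% interval -4.83 to -0.48, limma adjusted p = 0.142) and -2.78 for Cxcl9 (95% interval -4.85 to -0.71, limma adjusted p = 0.118). With the 4 HFD arrays alone both were called, with limma adjusted p = 0.0166 for Ccl8 and 0.0329 for Cxcl9, beside Cxcl13 and Cxcl14, making 4 of 34 lower where 2.76% of probe sets were called lower. Without SD viAP 4 (7.12% of probe sets called), or without SD viAP 3, the same 4 were called. On the other hand, none of the 4 passed when the p-values were adjusted over all probe sets (0.00459% called) or over the expression limit alone, and leaving out either SD scAP array or any 1 HFD array left none called. The differences themselves kept their sign, from -3.46 to -2.95 for Cxcl13 and from -2.38 to -2.09 for Cxcl14.

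Marker lists also differed between the HFD depots. Over all probe sets with 1 symbol, 20% were lower on both HFD viAP arrays than on both HFD scAP arrays, and of those above the limit 23.2% were lower and 31.8% higher. Of the 18 endothelial genes, 16 were lower and 1 higher, and Cdh5 was called lower, at -2.70 (limma adjusted p = 0.045). Of 10 genes of interstitial progenitors, 9 were lower and none higher, with summed intensities of 6356 and 6488 in HFD viAPs and 8103 and 12199 in HFD scAPs. Of 10 genes of committed preadipocytes 7 were lower and 2 higher; called lower were the fatty acid transporter Cd36, at -3.43, and the lipid droplet protein Plin2, at -1.41 (limma adjusted p = 0.045 for each). Of the 11 interferon-responsive genes 8 were lower and none higher. Their part in the ligand differences was not tested.

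On SD, no ligand was called between depots with all 8 arrays, 0 of 34 where 0% of the 3076 probe sets were called by limma. An unadjusted limma p under 0.05 was reached by 4 of the 34 ligands and by 2104 of the 21789 probe sets, a similar share. The smallest adjusted p was 0.137, for Ccl11 (0.54 higher in viAPs, 95% interval 0.16 to 0.93). The result rests on SD viAP 4. For 9 of the 13 ligands with signal (not counted over all probe sets), that array lay closer to the SD scAP mean than to SD viAP 3. Without it, Ccl8 was lower in the SD viAPs, at -3.88, as was Cxcl10, at -2.13. These comparisons then use 1 viAP pool, assumed to vary like the others. Ccl8 was above the limit only on the 4 scAP arrays and SD viAP 4, so it entered the 3076 through the group where it is high. Ccl11 was then 0.74 higher in viAPs (limma adjusted p = 0.0363, under 2-fold), and Cxcl13, at -1.02, did not pass (limma adjusted p = 0.0933).

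**Figure D4:**
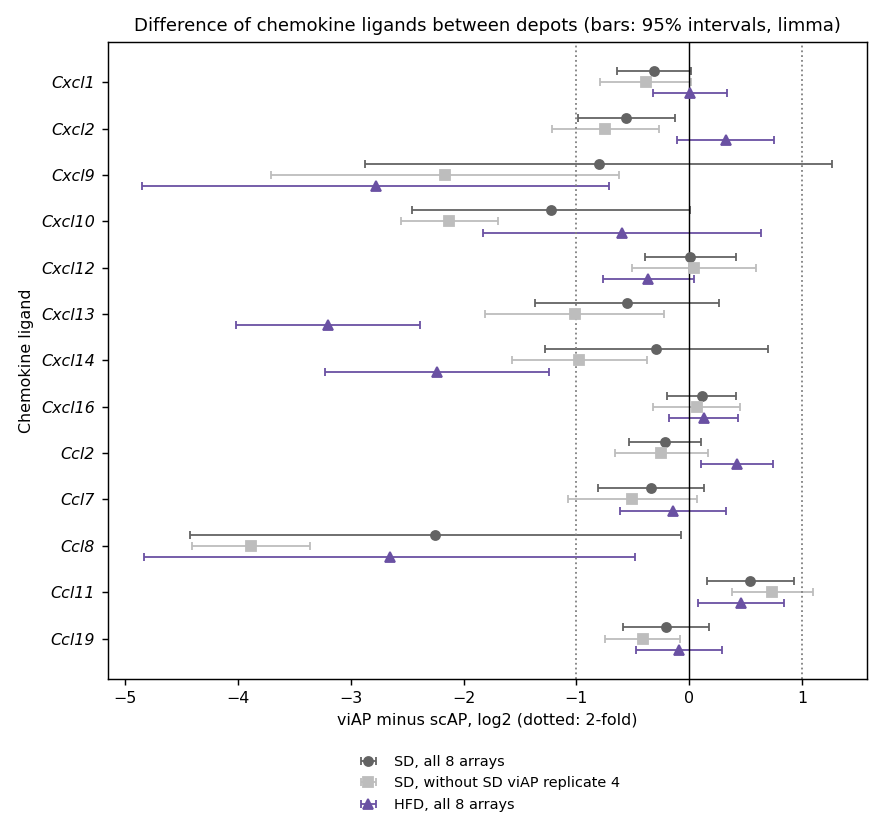
Difference between depots (viAP minus scAP, log2) of the 13 ligands above the expression limit, with 95% limma intervals, on SD with all arrays (circles), on SD without SD viAP replicate 4 (squares) and on HFD (triangles). Ccl8 lies left of the 2-fold line in all 3 fits, Cxcl13 and Cxcl14 lie further left on HFD than on SD, and Ccl11 lies right of 0 in each.

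The receptors of these ligands were below the limit in the same cells. None of 17 chemokine receptor genes passed the limit, 14 lay below the median of every array, and none was called in any comparison. The brightest by mean were Cx3cr1, at 5.75 to 6.49, and Ccr7, at 5.46 to 6.48. Of 6 atypical receptors, which bind chemokines without signalling through G proteins, 3 passed: Ackr1, Ackr2 and Ackr3. Ackr3, which takes up CXCL12, read 8.93 to 9.57 on SD and 9.63 to 10.50 on HFD, and was higher on HFD by 0.79 in viAPs (limma adjusted p = 0.012) and 0.83 in scAPs (limma adjusted p = 0.0239), under 2-fold in both; without SD viAP 4 the viAP value was 0.83 too (limma adjusted p = 0.0434). Ackr2, a scavenger of inflammatory CC ligands, read 8.21 to 8.75.

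Genes that process or hold chemokines, and targets of NF-kB, a main inducer of Cxcl1, Cxcl2 and Ccl2, were set beside them. Of 20 NF-kB targets, 3 rose in viAPs, where 12.5% of the 3076 probe sets were called higher: Vcam1, an adhesion molecule for leukocytes, by 1.32, the cytokine Lif by 1.05 and the apoptosis inhibitor Birc3 by 1.00 (limma adjusted p = 0.0049, 0.0185 and 0.0041). When SD viAP 4 was left out, Vcam1, at 1.31, and Birc3, at 1.08, were still called (limma adjusted p = 0.0229 and 0.0151), while Lif, at 0.61, fell short of 2-fold and lost its call. Vcam1 alone was called in scAPs, higher by 1.53 (limma adjusted p = 0.0141), a call lost with the 4 scAP arrays alone. The median over the list was 0.38 in viAPs and 0.12 in scAPs. The brightest, Ptgs2 and Nfkbia, read 12.06 to 12.88 and 10.62 to 11.47. Of 13 genes for chemokine processing and binding, Ext1, which extends heparan sulphate chains, was called higher in viAPs with all arrays, at 1.06 (limma adjusted p = 0.0086), but not without SD viAP 4, at 0.73, and Mmp2, a protease that cuts CXCL12, read 11.19 to 12.59.

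Stromal cells that make Cxcl13 in lymphoid tissue share other genes, and 12 such genes were measured, of which 7 passed the limit. Of the 12, 7 were higher and 3 lower on both HFD viAP arrays than on both SD viAP arrays. Among probe sets above the limit, 62.2% were higher and 12.1% lower in that way. With all arrays 2 were called higher in viAPs, Vcam1 and the surface glycoprotein Pdpn (1.15, limma adjusted p = 0.0063), and none lower, but Pdpn, at 0.84, lost its call without SD viAP 4. The list's summed intensity was 3429 and 3905 on SD viAP and 6270 and 6429 on HFD viAP. Of 9 precursor markers 6 were higher and 2, Dlk1 and Pparg, lower in that way. Thy1 was called higher in viAPs, by 1.33, and Itgb1, by 1.26 (limma adjusted p = 0.0101 and 0.0039), and none was called lower. Without SD viAP 4 the rises of Thy1 and Itgb1 were 1.79 and 1.16. Cd34 read 11.38 to 12.37. The mature adipocyte gene Car3, a carbonic anhydrase, fell beside Cxcl13, with changes of -3.43 in viAPs and -1.69 in scAPs (limma adjusted p = 0.0034 and 0.0245), and of -3.58 in viAPs without SD viAP 4 (limma adjusted p = 0.0166). The other 7 adipocyte genes were not called, and none passed the limit. On both HFD arrays 3 were lower than on both SD arrays in viAPs and 5 in scAPs. Of probe sets above the limit 12.1% and 9.49% were lower in that way, and the share among those below it is not given here. The sums were 451 and 509 on SD viAP and 333 and 360 on HFD viAP. In scAPs they were 481 and 489 on SD and 366 and 398 on HFD. Of 11 pericyte and smooth muscle genes 4 were higher and 3 lower on both HFD viAP arrays, and Abcc9 was called lower, at -2.09 (limma adjusted p = 0.0149), or -1.19 without SD viAP 4 (limma adjusted p = 0.02). Their part in the Cxcl13 result was not tested.

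Leukocyte genes read low on all arrays. None of 17 macrophage and monocyte genes, 12 lymphocyte genes and 10 granulocyte and mast cell genes passed the limit on 3 arrays. Summed intensities over the macrophage list were 594 to 619 on HFD viAP, 639 to 695 on the scAP arrays and 683 to 786 on SD viAP, and Cd68 reached its highest level, 7.84, on SD viAP 3, the array on which Ccl9 passed the limit. Of 12 mesothelial genes only Wt1 passed it, with sums of 670 and 1232 on SD viAP, 1012 and 1179 on HFD viAP and 499 to 657 on the scAP arrays.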

How the data were processed

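Each of the 8 arrays (Affymetrix, 1 colour) measured RNA pooled from 3 mice. The authors deposited 1 table of normalized intensities on a linear scale. The submitters' processing notes name RMA in Affymetrix Expression Console 1.1, the published methods name an R package, and the step back from log2 is not given in the sources used here. Depth has no meaning for arrays, and precision is limited by 2 pools per group. The p-values set differences of group means against the spread between pools, estimated over the groups together. No table column was left unused (0).

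Values were taken as log2 of the intensity. Of 35556 probe sets, 21789 had 1 gene symbol, 1621 several and 12146 none. limma 3.58.1 (R 4.3.3) fitted 4 group means to all probe sets, with 4 residual and 2.64 prior degrees of freedom. Benjamini-Hochberg adjustment ran over 3076 probe sets with 1 symbol, log2 above 7 on at least 3 arrays (7315 passed this) and mean absolute deviation in the upper tercile. Members outside it were adjusted over 21789. The scripts were tested on simulated data. Symbols were matched to RefSeq (GRCm38.p6) by Entrez ID for all 34 genes; 0 symbols changed. Promoter windows of Cxcl5, Cxcl11, Cxcl16, Cxcl17, Ccl2, Ccl4, Ccl5, Ccl7, Ccl11, Ccl24 and Ccl26 were not used here.

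The members, gene lists and tests were chosen with earlier results of these data known. Ligands above the limit were named with their values and the others by range. Of each other list, up to 4 called genes and the 2 brightest by mean level were considered for naming, with Tbx15, Wt1, Pdgfra, Pecam1, Ptprc and Cd68 always given. Alternatives changed the arrays fitted, pseudocount (16), scaling, filter, minimum fold and probe set rule, and left out each array.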

Additional observations from a re-analysis of the deposited data

How the results depend on the processing

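No paired analysis was possible because the labels number the arrays 1 to 8 and no groups share a number. For called ligand changes, 28 of 40 values under other settings and 21 of 45 with 1 array left out kept the call, 12 and 24 lost it, and none changed sign; the cause was not tested. In viAPs (1 ligand called) no minimum fold gave 2, and leaving out arrays 1 to 3. In scAPs (2 called) the 4 arrays alone gave 0, a second quantile normalization 1, no filter 0, the expression limit alone 0, and leaving out arrays 0 to 2. Between HFD depots (2 called) the same settings gave 4, 1, 0 and 0, and leaving out arrays 0 to 4. The SD depots (0 called) gave 0 to 2 and the difference of diet changes (0 called) 0 to 3 with arrays left out. Leaving out SD viAP 4 with the filter taken from the other arrays, an alternative chosen after seeing the data, gave 2 in viAPs, 2 between SD depots and 4 between HFD depots, and turned Ccl8 to 0.67 and Cxcl14 to 0.41 in viAPs and Ccl8 to 1.23 in the difference. The count of 13 ligands with signal was within 1.5 times under the other limits tried.

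Median centring moved the median of all probe sets in viAPs from -0.05 to 0.09. Uncalled changes near 0 turned sign: with a second quantile normalization Ccl19 was -0.21 in viAPs, Ccl7 -0.037 in scAPs and Cxcl16 -0.057 in the difference, and with centring Ccl19 was 0.054, Cxcl1 0.034 and Cxcl12 0.088 in scAPs and Cxcl12 -0.018 between SD depots. With arrays left out, uncalled changes that turned sign ran, in viAPs, from -2.59 to 0.67 for Ccl8, -0.11 to 1.70 for Cxcl10, -0.95 to 0.41 for Cxcl14 and -0.14 to 0.27 for Ccl19. In scAPs they ran from -0.13 to 0.30 for Ccl7, -0.18 to 0.048 for Cxcl1, -0.22 to 0.19 for Cxcl12 and -0.073 to 1.19 for Cxcl9. In the difference they ran from -0.28 to 0.11 for Ccl11, -0.091 to 0.32 for Ccl19, -0.027 to 0.41 for Ccl7, -2.04 to 1.23 for Ccl8, -0.28 to 1.53 for Cxcl10 and -0.10 to 0.14 for Cxcl16. Between SD depots they ran from -0.20 to 0.21 for Cxcl12, -0.97 to 0.39 for Cxcl14, -0.0066 to 0.23 for Cxcl16 and -2.17 to 0.56 for Cxcl9, and between HFD depots from -0.11 to 0.12 for Cxcl1. The files hold no background measure, so a level under log2 7 bounds nothing.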

Other observations

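A few chemoattractants lie outside the rule by their symbols. Of 5 such genes, 2 read above log2 7. Rarres2, which encodes the leukocyte attractant chemerin, read 10.56 and 10.49 on SD scAP, 9.82 and 10.46 on SD viAP, 10.04 and 10.03 on HFD viAP and 10.76 and 10.96 on HFD scAP. Mif, a cytokine that binds CXCR2 and CXCR4, read 8.28 to 8.61 on all arrays. The platelet chemokines Pf4 and Ppbp read 3.70 to 4.25, and none of the 5 was called in any comparison.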
